A study of Mus musculus and Homo sapiens with 16 samples.

Results

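HaCaT, an immortal human keratinocyte line, was profiled by ChIP-seq for the transcription factor KLF5 and for H3K27ac, the acetylation of histone H3 found at promoters and enhancers in use. Of the 22214 KLF5 peaks on chromosomes 1 to 22, X and Y (hg19), 6059 shared no base with any of the 39630 H3K27ac peaks of the same line. These 6059 peaks were chosen by the positions of the called H3K27ac peaks, and the other 16155, which shared at least 1 base with an H3K27ac peak, serve as their comparison. The share outside H3K27ac was 27.3% (95% Wilson interval 26.7 to 27.9%). Both HaCaT samples are labelled wild type and unsorted, with 1 sample per assay, so nothing can be said of the spread between cultures. The series also holds a KLF5 and an H3K27ac sample from wild-type C57BL/6 mouse skin epithelium at E17.5, sorted as DAPI-, CD45- and Integrin A6+, which are set beside HaCaT where the same quantity exists. Because the H3K27ac list made the choice, the position of the peaks relative to that mark is a description and not a result. The defining keratinocyte genes of HaCaT were not checked, because no human gene annotation was used here.

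KLF5 is a zinc-finger transcription factor of the Krüppel-like family. It binds GC-rich and CACCC-type sequences and is known for its expression in the dividing cells of epithelia, the basal layer of the epidermis among them. Transcription factors commonly bind both at elements that carry H3K27ac, which is placed by the co-activators p300 and CBP, and at sites without it. A peak list holds what passed a calling threshold, so a KLF5 peak outside the H3K27ac list can still carry acetylation below that threshold.

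The KLF5 peaks outside H3K27ac were small peaks with few fragments at the summit. Their median width was 269 bases (interval 265 to 272), against 419 bases (413 to 423) for the KLF5 peaks within H3K27ac. A wider KLF5 peak has more bases that can meet an H3K27ac peak, so width is not independent of the rule. With overlap counted by the summit base alone the medians were 279 bases outside and 423 bases within. The shortest width in the list was 200 bases, and 963 of the 6059 peaks outside H3K27ac (15.9%) had it, against 747 of the 16155 others (4.62%). The lower and upper quartiles outside the mark were 215 and 373 bases, and the widest peak reached 1308 bases. Intervals of medians and shares cover counting over the peaks of 1 library only, and neighbouring peaks are not independent.

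The deposited fold enrichment, which sets the fragments stacked at the summit (the pileup) against a local background, separated the groups far less than width did. The median was 4.19-fold (4.17 to 4.22) outside H3K27ac and 4.36-fold (4.34 to 4.38) within it. The highest values were 11.5-fold and 13.5-fold, and only 3 peaks within H3K27ac exceeded the highest peak outside it. Among peaks with a −log10 q of at least 5 the order of the medians turned, with 5.00-fold outside and 4.85-fold within. With a −log10 q of at least 10 the medians were 6.15-fold and 5.70-fold. The −log10 q depends on pileup and background, as the fold does, so these cuts do not compare peaks of like pileup. With 20 to 29 fragments at the summit the median folds were 4.23 outside and 4.37 within. They were 4.46 and 5.03 with 30 to 49 fragments, and 5.30 and 5.67 with 50 or more. With fewer fragments the order was the other way, at 4.12 and 4.05 (8 to 14) and 4.28 and 4.10 (15 to 19).

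The −log10 q values, which weigh the number of fragments, differed more. Their median was 4.37 outside H3K27ac and 6.11 within it. A −log10 q of at least 10 was reached by 349 peaks outside the mark (5.76%) and by 3709 within it (22.96%). The lowest value outside the mark was 1.64 and the highest 33.2, while the highest within it was 142.

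The fold and the −log10 p of a peak together determine the pileup at its summit and its local background, and a whole-number pileup was found for all 22214 KLF5 peaks. The median pileup was 15 fragments outside H3K27ac, with quartiles of 12 and 20. Within H3K27ac it was 22 fragments, with quartiles of 17 and 29. A pileup of at least 30 occurred in 346 peaks outside the mark (5.71%) and in 4001 within it (24.8%). The local background was also lower outside the mark, with a median of 2.74 fragments against 4.24. A background at the list's lowest value of 1.71 fragments was recorded for 676 peaks outside H3K27ac (11.2%) and for 255 within it (1.58%). Fewer fragments over a lower background thus stood at nearly the same fold.

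**Figure D1:**
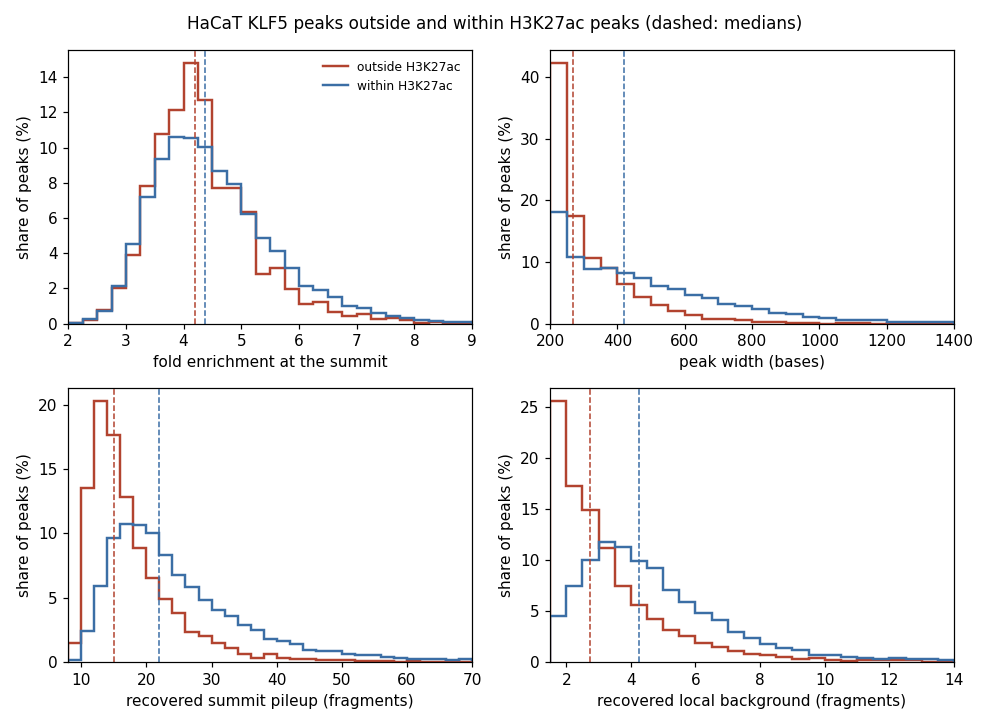
Share of HaCaT KLF5 peaks (y axes, %) by fold enrichment, width in bases, recovered summit pileup and recovered local background in fragments (x axes), for the 6059 peaks outside H3K27ac (red) and the 16155 within it (blue), with dashed lines at the medians. The fold curves nearly coincide (medians 4.19 and 4.36), while width (269 and 419 bases), pileup (15 and 22) and background (2.74 and 4.24) lie apart.

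Within classes of like pileup the peaks outside H3K27ac were still narrower by median. Inside a class the 2 groups can still differ in pileup, which was not adjusted for. Among peaks with 15 to 19 fragments at the summit, 1822 lay outside the mark with a median width of 279 bases and 4279 within it with 315 bases. Among those with 20 to 29 fragments the widths were 359 bases (1187 peaks) and 439 bases (5781 peaks). Among those with 30 to 49 fragments they were 490.5 bases (320 peaks) and 656.5 bases (3312 peaks). The medians of the local background in these 3 classes were 3.10 and 3.34, 4.62 and 4.62, and 6.88 and 6.40 fragments. With 8 to 14 fragments the widths were 232 bases (2704 peaks) and 254.5 bases (2094 peaks), and the backgrounds 2.00 and 2.32 fragments. With 50 or more fragments the widths were 678.5 bases (26 peaks) and 917 bases (689 peaks), and the backgrounds 9.70 and 9.74 fragments. The width outside the mark was lower in each class. The background was lower outside it with 8 to 14, 15 to 19 and 50 or more fragments. It was equal with 20 to 29 and higher with 30 to 49. The part of the background in the widths was not tested.

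The share of KLF5 peaks outside H3K27ac fell with peak strength. It was 56.4% among peaks with 8 to 14 fragments at the summit, 29.9% with 15 to 19, 17.04% with 20 to 29, 8.81% with 30 to 49 and 3.64% (26 of the peaks) with 50 or more, against 27.3% over all KLF5 peaks. With the list cut into 10 equal classes by −log10 p, the share fell from 47.9% in the lowest to 6.44% in the highest. By width, which is not independent of the rule, it fell likewise from 53.5% to 4.23%. Fold enrichment gave another shape: 24.98% in the lowest class, 33.6% in the fourth and 17.3% in the highest. The peaks of lowest fold were no richer in peaks outside H3K27ac than the whole list. By local background, which enters the fold, the share fell from 68.1% in the lowest class to 11.7% in the highest. Fold and background were not taken apart here.

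**Figure D2:**
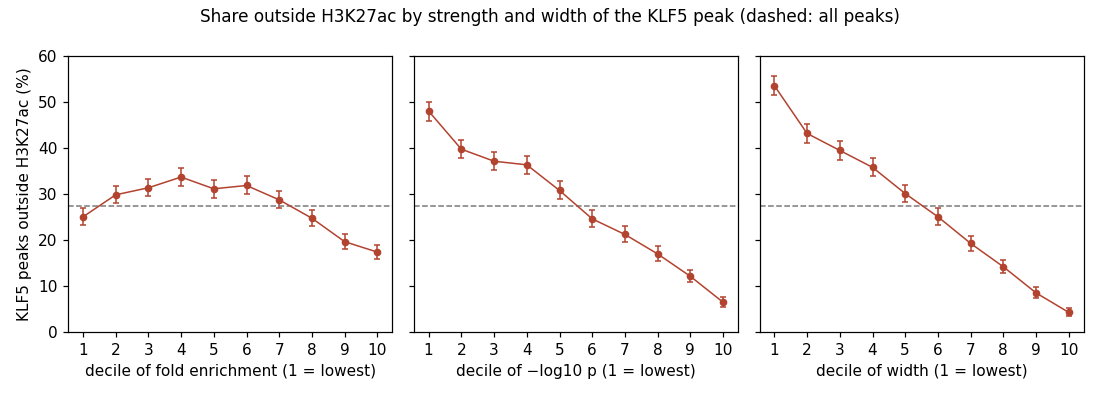
Share of HaCaT KLF5 peaks outside H3K27ac (y axis, %) in 10 equal classes of the list by fold enrichment, −log10 p and width (x axes, 1 is the lowest), with 95% Wilson intervals as bars and the share of all KLF5 peaks, 27.3%, as a dashed line. The share falls steadily with −log10 p (47.9 to 6.44%) and width (53.5 to 4.23%) and is highest in the fourth class by fold (33.6%).

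Most KLF5 peaks outside H3K27ac were not at its edge. The median distance from the edge of such a peak to the nearest H3K27ac peak was 14429.5 bases. The closest 10% lay within 364 bases and the farthest 10% beyond 123797 bases. Under 1 kb away were 966 peaks (15.9%), at 1 to 10 kb 1565 (25.8%), at 10 to 50 kb 2103 (34.7%), at 50 to 100 kb 656 (10.8%) and at 100 kb or more 766 (12.6%). The 3 peaks on chromosome Y have no distance, because the H3K27ac list holds 0 peaks there.

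Peaks far from the mark had fewer fragments over a lower background and, as the ratio of these, a higher fold by median. The median pileup went from 18 fragments in the class under 1 kb to 17, 14, 14 and 13.5 in the farther classes. The local background went from 3.88 to 3.50, 2.44, 2.22 and 1.96 fragments. The median fold rose over the same classes from 3.77 to 4.00, 4.35, 4.43 and 4.56. Width stayed between 258.5 and 277 bases. The −log10 q was lowest next to the mark, at 4.06, and between 4.38 and 4.45 elsewhere.

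**Figure D3:**
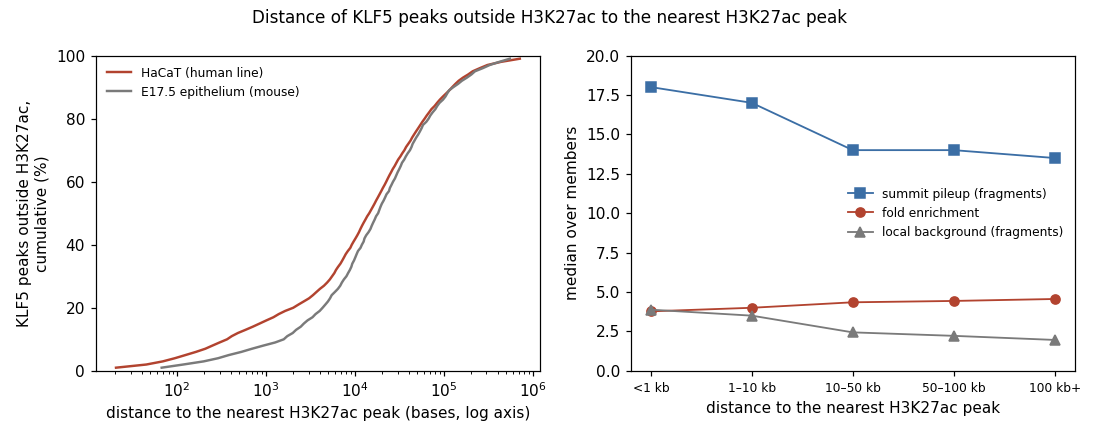
Left, cumulative share (y axis, %) of KLF5 peaks outside H3K27ac by distance to the nearest H3K27ac peak (x axis, bases, log scale) in HaCaT (red) and in mouse E17.5 epithelium (grey). Right, medians of summit pileup, fold enrichment and local background over the HaCaT peaks in 5 distance classes: pileup falls from 18 to 13.5 fragments and background from 3.88 to 1.96, and fold rises from 3.77 to 4.56.

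The H3K27ac peaks next to the 966 peaks under 1 kb away were much like those that held no KLF5 peak. These 950 neighbours had a median width of 326 bases and a median summit pileup of 20 fragments. The 24026 H3K27ac peaks that held no KLF5 peak had 339 bases and 21 fragments. Those that held a KLF5 peak, 15604 in number, had 758 bases and 33 fragments. The rule kept KLF5 peaks that no H3K27ac peak reached, so it bears on these widths and the contrast is only a description. For 311 of the 966 (32.2%) the neighbouring H3K27ac peak held another KLF5 peak, against 39.4% of all H3K27ac peaks. Only 46 peaks lay between H3K27ac peaks that were both within 1 kb, with a median of 670 bases from flank to flank. Another 921 had an H3K27ac peak at most 1 kb away on 1 side only. Acetylation below the calling threshold on the other side cannot be seen here. Whether peaks lay in gaps of acetylated domains was not tested.

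At the border of the rule, 6 KLF5 peaks touched an H3K27ac peak edge to edge without a shared base. The 5 of them with the highest fold were chr7:2149914-2150135 at 4.90-fold, chr16:75130788-75131200 at 4.55-fold, chr10:118706629-118706844 at 4.23-fold, chr9:23769505-23769813 at 3.85-fold and chr14:39638659-39638858 at 3.51-fold. On the other side, the peak chr3:48636273-48637006 at 6.28-fold, 734 bases wide with 49 fragments at its summit, counted as within H3K27ac by 1 shared base. So did chr1:93907784-93908035 at 3.75-fold and chr1:223842943-223843216 at 3.39-fold. With 2 shared bases chr2:121020377-121020583 stood at 4.73-fold and chr11:66221761-66221962 at 4.30-fold. In all, 256 peaks outside the mark lay under 100 bases from it, and 199 within it shared under 50 bases. Of the peaks within H3K27ac 55.0% were covered in full and 8.47% by under 50%.

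Most of the 20 highest folds outside H3K27ac belonged to peaks near long stretches without any peak. Such a stretch was taken as at least 3 Mb free of KLF5 and H3K27ac peaks, counted from the first base of a chromosome, and 38 were found. Of the 20 peaks with the highest fold, 12 lay within 1 Mb of a stretch, among them the first 8, against 152 of all 6059 (2.51%) and 226 of the 16155 within H3K27ac (1.40%). This measure was chosen after the positions were seen, and its part in the fold of these peaks was not tested. No human genome was used here, so whether these stretches hold assembly gaps or repeats was not examined. A high fold beside them is therefore not to be read as strong KLF5 binding.

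The highest fold, 11.5, was at chr17:22253028-22253401, a peak 374 bases wide. This peak had 30 fragments at the summit over a background at the lowest value and a −log10 q of 22.6. The second, chr17:22261402-22261784, had 10.8-fold and 29 fragments and was the last peak before a stretch of 3.04 Mb. Their nearest H3K27ac peaks were 947 and 955 kb away. On chromosome 21, chr21:9826865-9827244 had 10.3-fold with 27 fragments and lay 1.015 kb from the 9.83 Mb without a peak at the start of the chromosome. The fourth, chr2:92269318-92269681, had 9.76-fold with 40 fragments, and the fifth, chr1:121478501-121478843, had 9.42-fold with 28. The next, chr19:27789506-27789855, chr21:11186920-11187842 and chrX:61839126-61839419, had the same fold of 9.24 from 24 fragments over the lowest background. The same held further down for chr11:51591148-51591510 at 8.87-fold (23 fragments), for the peak on chromosome Y at 8.50-fold (22 fragments) and for chr4:49659433-49659758 at 8.13-fold (21 fragments). The peak chr16:46416960-46417449 had 8.64-fold with 46 fragments. Without all KLF5 peaks near a stretch, an alternative chosen after seeing the data, 5907 peaks remained outside H3K27ac, 27.1% of the list, with a median fold of 4.19 and a median width of 269 bases.

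The 8 remaining peaks of the 20 lay away from such stretches. They were led by chr2:124114188-124114565, with 9.09-fold enrichment, 27 fragments and the nearest H3K27ac peak 725 kb away. The peak chr20:51820483-51820842 had 8.76-fold with 23 fragments, 238 kb from H3K27ac. On chromosome 11, chr11:114510543-114511053 had 8.62-fold with 24 fragments at a distance of 199 kb. The peaks chr9:105126134-105126583 (8.45-fold, 35 fragments) and chr15:54844647-54845133 (8.29-fold, 32 fragments) were 829 and 643 kb from the mark. On chromosome X, chrX:47382833-47383133 had 8.27-fold (22 fragments) and chrX:134232706-134233179 had 8.20-fold (29 fragments), at 8.37 and 46.1 kb. The last, chr16:30493540-30494151, was 612 bases wide with 8.08-fold, 42 fragments and H3K27ac 7.42 kb away. Of all 20 peaks 12 were 100 kb or more from H3K27ac.

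**Figure D4:**
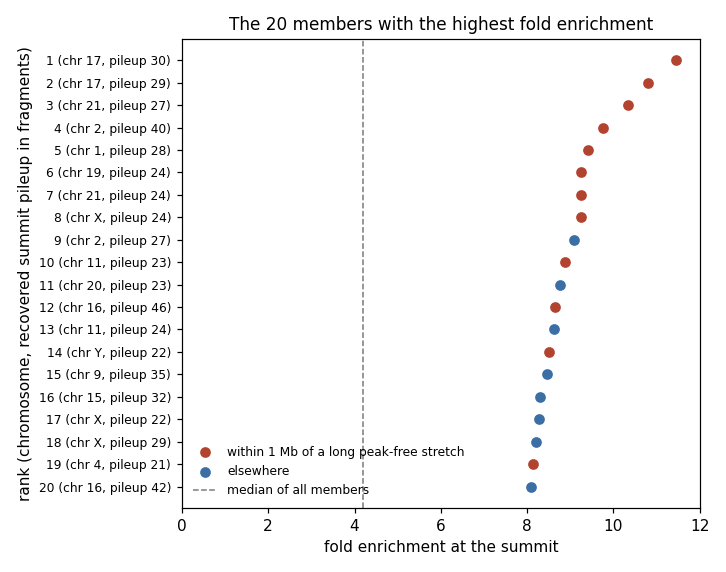
Fold enrichment at the summit (x axis) of the 20 KLF5 peaks outside H3K27ac with the highest values, by rank (y axis, with chromosome and recovered summit pileup in fragments). Red points lie within 1 Mb of a stretch of at least 3 Mb without a peak (12 of 20, ranks 1 to 8 among them), blue points elsewhere, and the dashed line is the median of all 6059 peaks, 4.19.

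Ranked by pileup instead of fold, and leaving out peaks near a stretch, other peaks led. Of the first 5, which were chosen after their values were seen, 4 are described. The peak chr6:56708692-56709382 had 79 fragments over a background of 11.7, 6.30-fold enrichment and an H3K27ac peak 2.39 kb away. The peak chr9:136019854-136020302 had 69 fragments over 13.7 and 4.77-fold, and chr12:125062511-125063618 had 66 over 7.74 and 7.67-fold. The peak chr16:81763720-81764471, 752 bases wide with 65 fragments, 7.91-fold and 10.7 kb from H3K27ac, held the highest −log10 q of all peaks outside the mark, 33.2. Among these 4 the longest distance to H3K27ac was the 10.7 kb of the last.

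Peaks outside H3K27ac had more distant KLF5 neighbours. The median distance to the nearest other KLF5 peak was 22196 bases outside the mark and 14546 bases within it. Another KLF5 peak lay within 1 kb for 667 peaks outside (11.0%) and for 3248 within (20.1%). The nearest KLF5 neighbour was itself outside H3K27ac for 35.5% of the peaks outside and for 22.4% of those within, where 27.3% of all KLF5 peaks are outside. In order along the chromosomes, 2746 of the 6059 stood alone between peaks within H3K27ac, and 412 stood in the 70 runs of 5 or more.

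The longest run held 13 KLF5 peaks in a row outside H3K27ac, over 2092 kb at chr11:114472330-116564561, with 8 H3K27ac peaks between them. Their folds went from 3.25 to 8.62 (median 4.43). The 2 strongest, chr11:114502954-114504116 (7.53-fold, 21 fragments) and chr11:114510543-114511053, were neighbours. The next run, at chr16:59083919-66256333, held 11 peaks over 7172 kb with 13 H3K27ac peaks between them. They did not fill this span evenly, as no KLF5 peak lay between chr16:59937542-59937741 and chr16:65162059-65162467. All peaks of this run were weak, with 9 to 14 fragments and folds from 3.69 to 5.21. The third run, at chr9:104876286-106210568, held 9 peaks over 1334 kb with 0 H3K27ac peaks between them, each at least 356 kb from the mark. Its strongest, chr9:105126134-105126583, had 35 fragments, and 3 others had 22, 27 and 22. The remaining 5 had 10 to 12.

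The share outside H3K27ac varied moderately between chromosomes 1 to 22 and X. Chromosome Y, where all 3 KLF5 peaks lay outside the mark and the H3K27ac list holds 0 peaks, was left out of this comparison. The share was lowest on chromosome 17, with 271 of 1217 KLF5 peaks (22.3%, interval 20.02 to 24.7%), and highest on chromosome 13, with 151 of 452 (33.4%, 29.2 to 37.9%). Intervals lay wholly above 27.3% on chromosomes 4 (31.9%), 9 (32.1%), 13 and 20 (30.9%), and wholly below on chromosomes 14 (24.0%) and 17. Those of the other 17 of the 23 chromosomes included it. These intervals count peaks of 1 library as independent and were not adjusted for the 23 chromosomes. They are therefore no test of a difference between chromosomes. The median fold of the peaks outside the mark ranged over chromosomes 1 to 22 and X from 3.92 on chromosome 15 to 4.52 on chromosome 22. Their median distance to H3K27ac ranged from 9532 bases on chromosome 19 to 22048.5 bases on chromosome 4.

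**Figure D5:**
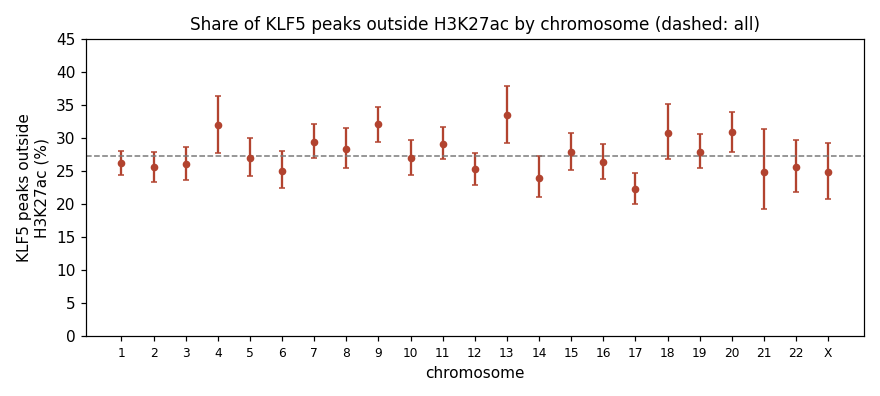
Share of HaCaT KLF5 peaks outside H3K27ac (y axis, %) on each chromosome from 1 to 22 and X, with 95% Wilson intervals as bars and the share over all chromosomes, 27.3%, as a dashed line. Shares run from 22.3% on chromosome 17 to 33.4% on chromosome 13, and the intervals of 17 of the 23 chromosomes include the line.

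The mouse E17.5 epithelium gave a smaller list in which the peaks outside H3K27ac were likewise the narrower and weaker ones by median. Of its 6433 KLF5 peaks (mm10) 1669 shared no base with its 18120 H3K27ac peaks, or 25.9% (24.9 to 27.03%), beside 27.3% in HaCaT. The mouse peaks outside the mark had a median width of 278 bases against 363 within it, and 3.82-fold against 4.08-fold. Their median pileup was 23 fragments against 26, and the −log10 q was 4.85 against 6.20. The median distance to H3K27ac was 18161 bases, and 8.39% lay under 1 kb away, beside 14429.5 bases and 15.9% in HaCaT. Distance and share also depend on the length of the H3K27ac list, 18120 peaks here and 39630 in HaCaT. Species and preparation differ between these samples and their depth is unknown, so the values stand side by side with no test.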

How the data were processed

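KLF5 and H3K27ac ChIP-seq peak lists of HaCaT (hg19) and mouse E17.5 epithelium (mm10) were used, 1 list per sample. The submitters' processing notes list MACS2 for peaks, Bowtie 1.0.1 and Bowtie2 2.2.3. The sources used here give neither the control library nor the threshold, nor the meaning of MERGE in the peak names. The authors deposited each peak's summit fold enrichment (a ratio to local background), −log10 p and −log10 q, which only describe or rank peaks within a list. The deposited score, 10 times −log10 q as a whole number, was left aside.

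Overlap meant at least 1 shared base, and distances run from edge to edge. The summit pileup k and background b were solved from fold = (k + 1)/(b + 1) and the Poisson upper tail above k, within 0.0002 of the deposited −log10 p. The total depth of each library is unknown. The functions were tested on simulated data.

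Regions named are the 20 highest folds, 5 peaks on each side of the rule's border and the 3 longest runs, plus 4 peaks of high pileup chosen after their values were seen. Members and lists were chosen with earlier results of these data known. With 1 library per assay no test was made. Shares have 95% Wilson intervals and medians exact order-statistic intervals. Motifs, genes and marker lists were not analysed because no human genome or annotation was used here, and neither were the IgG, ATAC and RNA samples. Overlap rules, thresholds and peak reach were varied. Python 3.11.15, pandas 2.3.3 and scipy 1.17.1 were used.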

Additional observations from a re-analysis of the deposited data

How the results depend on the processing

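Of 11 alternatives, 1 of them chosen after seeing the data (leaving out peaks within 1 Mb of a long peak-free stretch), all kept the KLF5 peaks outside H3K27ac narrower by median than those within it, and 9 kept their median fold lower; the exceptions were the 2 stricter KLF5 thresholds. With a −log10 q of at least 5 for KLF5 peaks, 2275 lay outside (18.1%), with median folds of 5.00 outside and 4.85 within and median widths of 362 and 528.5 bases. With at least 10, 349 lay outside (8.60%), with 6.15 and 5.70-fold and 523 and 706 bases. With H3K27ac peaks of −log10 q of at least 5 the share was 38.3%, the median fold within was 4.40 and the widths were 284 and 435 bases. Extending H3K27ac peaks by 1000 bases gave 22.9%, folds of 4.29 and 4.32 and a width of 405 bases within. Counting overlap by the summit base gave 33.1% and a width of 279 bases outside, and by at least 50% coverage 33.4% and 282 bases. The cause of these shifts was not tested. No KLF5 intervals touched, so joining them changed nothing. The alternatives on motifs and gene starts were not run. No paired analysis was possible because each assay has 1 sample and no test was made.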

Other observations

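Outside chromosomes 1 to 22, X and Y the HaCaT KLF5 list held 55 further peaks on other contigs, 11 of them on the mitochondrial genome. Of the 55 peaks 23 shared no base with an H3K27ac peak.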
